A study of Mus musculus with 18 samples.

Results

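The neuronal fraction of Atxn2-CAG100-knockin (KIN) brains was compared with that of wild-type (WT) brains. It comprised 6 of the 18 libraries of the study, 3 KIN and 3 WT, taken by their cell type and genotype labels. The KIN animals were homozygous for a CAG100 repeat placed in the mouse Atxn2 gene on a C57BL/6 background, and the WT animals were their littermates of the same sex from heterozygous matings, all aged 10 months. Microglia were drawn from each dissociated brain with CD11b beads, astrocytes with ACSA-2 beads, and the neuronal fraction was what remained after a cocktail against non-neuronal cells and CD31 beads, so that no neuronal antigen was selected for. Neurites are sheared off in dissociation, and such a fraction holds mainly cell bodies. Pairs of both sexes were used, but the labels do not tell which library came from which sex, and the Y-linked gene Kdm5d had between 7 and 16 reads in all 6 neuronal libraries.

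Ataxin-2 is a cytoplasmic RNA-binding protein that contacts the poly(A)-binding protein and enters stress granules. Expansion of its polyglutamine stretch causes spinocerebellar ataxia, in which Purkinje cells, other long-projecting neurons and their axons degenerate. Neuronal cell bodies supply those axons with motor proteins, membrane scaffolds of the spectrin and ankyrin families, vesicle proteins and newly made ribosomes, and these groups were followed here together with the chromatin, mitochondrial and receptor genes.

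RNA was counted by massive analysis of cDNA ends after removal of ribosomal RNA and addition of poly(A) tails. The WT neuronal libraries held 975225, 1017972 and 761481 counts, and the KIN libraries held 1867357, 1473194 and 2017932. The 10 most abundant transcripts took 80.1 to 85.7% of these counts. With at least 1 read, 12439, 13009 and 10619 genes were seen in WT and 15182, 14271 and 14962 in KIN. At the depth of the shallowest library the expected numbers were 11328 ± 643 in WT and 11562 ± 206 in KIN (mean ± SD, n = 3), a difference of 234 (two-sided exact permutation test, p = 0.8, where 0.1 is the smallest p that 3 against 3 can give). Of 35960 gene symbols and unnamed entries, 6765 had at least 5 reads in at least 2 of the 6 libraries and were tested. Levels are given as CPM, counts scaled to a common depth by the library size adjusted by the trimmed mean of M values, and differences as log2 fold changes, KIN minus WT, with their standard errors (SE). Where neuronal and glial libraries are compared, the CPM were scaled over all 18 libraries, and otherwise over the 6 neuronal libraries, so that the same library has a different value on each scale. The scale of all 18 raises KIN neuronal libraries relative to WT. The summed pan-neuronal markers, for example, went from 315, 320 and 281 to 340, 355 and 272 CPM in WT. In KIN they went from 265, 280 and 330 to 322, 331 and 401 CPM. A gene was called when its adjusted p did not exceed 0.05 and its level differed by 1 or more on the log2 scale. Differences with an unadjusted p up to 0.05 are termed nominal.

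WT replicate 2 stood apart from the other 5 libraries and is therefore described before the results. Of 4386 genes with at least 30 reads summed over the 6 libraries, 23 were at least 4 times higher in WT replicate 2 than in the next library, and 0 were so in each of the other libraries. Among them were Mbp, a major myelin protein, S100b, a calcium-binding protein of astrocytes, Nefh, the heavy neurofilament subunit, Ank3, the ankyrin of the axon initial segment, and the kinesin heavy chains Kif1a, Kif5a, Kif5b and Kif3a. The main values it moved are given with and without this library.

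**Figure D1:**
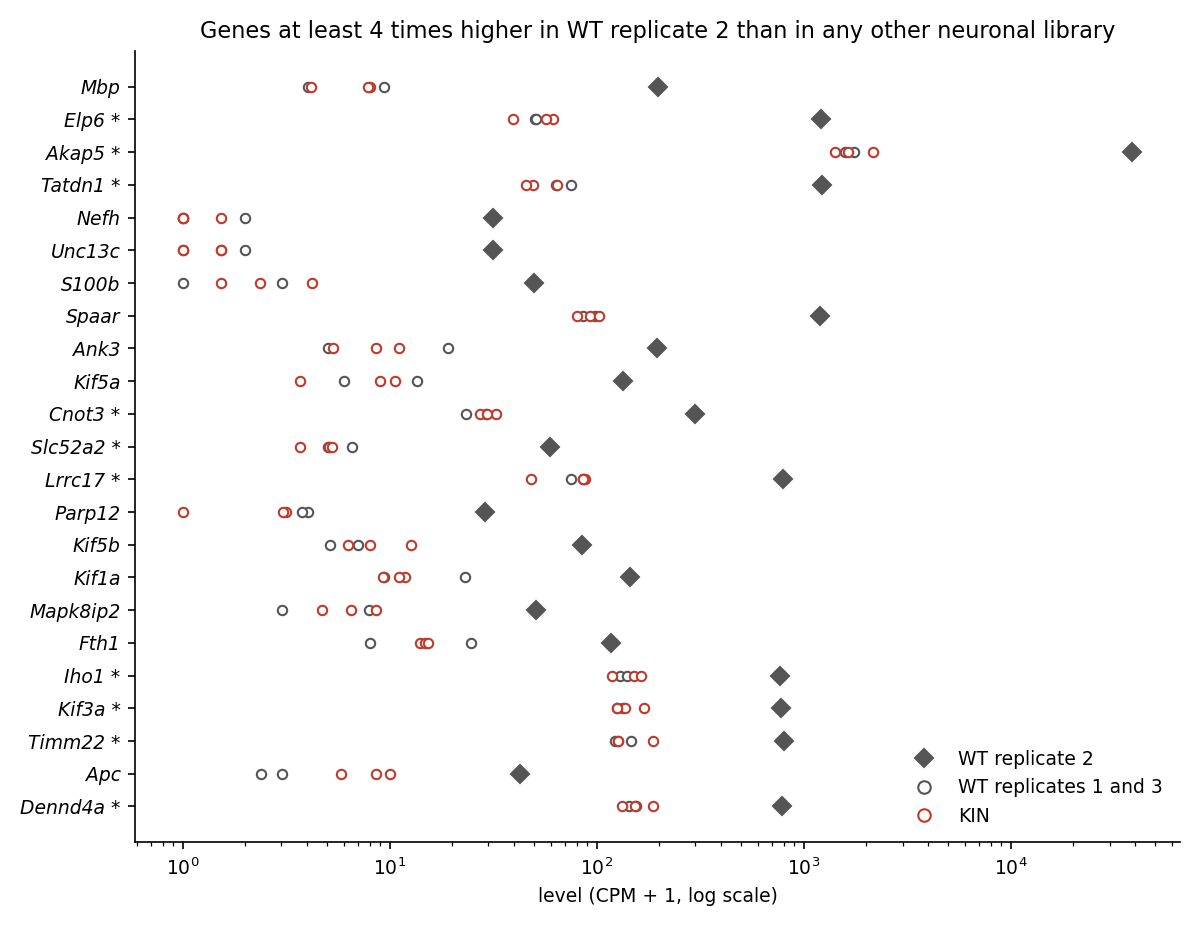
Level of the 23 genes that were at least 4 times higher in WT replicate 2 (filled diamond) than in any other neuronal library, on a log axis of CPM + 1, with the other WT libraries as grey circles and KIN libraries as red circles. Genes marked with an asterisk have a most counted transcript that holds the 22-base sequence printed in the text; Mbp lay at 197 CPM in WT replicate 2 and at most at 8.35 CPM elsewhere.

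Several of these genes had nearly the same counts, library by library. Iho1, a meiotic protein, had 128, 825 and 100 reads in WT and 280, 172 and 305 in KIN. The kinesin subunit Kif3a had 124, 841 and 95 reads in WT and 251, 181 and 318 in KIN. Timm22, an inner membrane translocase of mitochondria, had 144, 865 and 87 reads in WT and 234, 183 and 349 in KIN. These genes lie apart in the genome and have unrelated products. The most counted transcripts of 8 genes of the 23 were compared, and they held a common run of 22 bases on one strand or the other. It is shown here in capitals with 4 bases on either side, read from GRCm39 (mm39), because it ties together genes whose counts moved in parallel. The stretch lay in Tatdn1 at chr15:58780746-58780775 (minus strand, 3′ UTR), in Akap5 at chr12:76380237-76380266 (minus strand, on the 3′ UTR of a gene of the plus strand) and in Lrrc17 at chr5:21780446-21780475 (plus strand, 3′ UTR). It lay in Kif3a at chr11:53492693-53492722 (plus strand, 3′ UTR), in Iho1 at chr9:108280887-108280916 (minus strand, 3′ UTR) and in Timm22 at chr11:76305438-76305467 (plus strand, 3′ UTR).
Tatdn1: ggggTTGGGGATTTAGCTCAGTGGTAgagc
Akap5: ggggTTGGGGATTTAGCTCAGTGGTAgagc
Lrrc17: gggtTTGGGGATTTAGCTCAGTGGTAgagc
Kif3a: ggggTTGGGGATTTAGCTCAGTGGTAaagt
Iho1: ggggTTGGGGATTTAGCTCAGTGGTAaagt
Timm22: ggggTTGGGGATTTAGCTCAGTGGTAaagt

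The capitals are the kind of sequence known from the ID family of rodent interspersed repeats and from BC1, a short non-coding RNA of rodent neurons. The 22 letters occurred 454 times in the genome on both strands together and in 88 of 481956 annotated transcripts. Of the 23 genes high in WT replicate 2, the most counted transcript of 10 held them (43.5%), against 16 of 4381 genes with at least 30 reads and a transcript in the annotation (0.365%). The run was derived from 8 of these genes, so the share is a description without a test. The table counts reads per transcript and not per position, and the counting did not use strand. Whether the reads of these genes fell on the shared stretch was not tested, and their counts are uncertain as measures of the named genes.

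The label of the fraction was checked on markers. Of 175 marker genes compared between the 6 neuronal and the 12 glial libraries (two-sided exact permutation test on log2(CPM + 1), Benjamini-Hochberg over the 175), 41 were higher (23.4%) and 29 were lower (16.6%) in the neuronal fraction. Both named markers of the fraction separated it from glia, as the level of Tubb3, a neuronal tubulin, was 83.9 CPM against 11.5 in astrocytes and 1.68 in microglia, and that of Gad1, which makes GABA, was 16.8 against 2.17 and 2.35 (means of 6). Both had an unadjusted p of 5.39e-05 (exact permutation test), the smallest that free permutation of 18 libraries can give. Each brain gave 3 fractions, so the libraries are not independent. With the fraction labels permuted within brains (same-numbered libraries of a genotype taken as 1 brain, chosen after seeing the data), 39 markers were higher and 16 lower, and Tubb3 and Gad1 had a p of 0.00137 (exact permutation test), the smallest that this can give.

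Neuroblast and interneuron markers made up much of the neuronal excess. Of 13 genes of neuroblasts and progenitors, 11 were higher in the neuronal fraction. Dlx1 and Dlx2 stand on this list and on the GABAergic list and count in both. Dlx1, a homeobox factor of forebrain interneurons, averaged 129 CPM against 0.419 in astrocytes and 0.202 in microglia. Sox11, a factor of newborn neurons, averaged 93.2 CPM against 1.40 and 0.697, and the proliferation marker Mki67 averaged 19.2 CPM against 0.278 and 0.931. Of 14 GABAergic markers 9 were higher, and of 25 pan-neuronal markers 7 were higher (6 within brains) and 2 lower. The median log2 difference of the 25 was -0.16. Their sum was 272 to 401 CPM in the neuronal libraries. It overlapped with 219 to 429 CPM in the astrocyte libraries and lay above 94.0 to 205 CPM in the microglia libraries. The synaptic genes Snap25 and Syt1 lay at 3.25 and 1.02 CPM in the neuronal, 9.91 and 6.28 CPM in the astrocyte and 3.71 and 2.97 CPM in the microglia fraction. Against all glial libraries together they did not pass the test (adjusted p = 0.376 and 0.0799, exact permutation test). Within brains Syt1 passed as lower (adjusted p = 0.0117, exact permutation test). The difference from astrocytes alone was not tested. Of 10 glutamatergic markers 0 were higher and 2 lower, and of 14 cerebellar granule and Purkinje cell markers 0 were higher and 7 lower (4 within brains). Car8, which marks Purkinje cells, averaged 0.63 CPM against 3.15 in astrocytes and 2.17 in microglia (adjusted p = 0.000325, exact permutation test).

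Markers of other cells were present as well. All 4 haemoglobin genes tested were higher in the neuronal fraction, with Hbb-bs at 70.0 CPM against 4.71 in astrocytes and 0.875 in microglia. Of 7 choroid plexus genes 5 were higher (4 within brains), led by Ttr with 287 CPM against 119 and 61.0. Of 10 lymphocyte and granulocyte genes 4 were higher, the T cell genes Cd3e, Cd3d and Cd8a and the cytotoxic cell gene Nkg7. Of 15 astrocyte markers 6 were lower (2 within brains) and 9 did not pass, and their sum was 32.4 to 98.5 CPM in the neuronal libraries against 801 to 1764 CPM in the astrocyte libraries. Of 15 microglia markers 4 were lower (0 within brains) and 11 did not pass, with a sum of 11.9 to 17.0 CPM against 1100 to 1925 CPM in microglia. The astrocyte genes Aqp4 and Aldoc and the microglia genes Aif1, Tmem119, P2ry12, C1qb, C1qc and Ctss had 0 reads in all 6 neuronal libraries, whereas Ndrg2 averaged 8.49 and the microglia gene Cx3cr1 6.06 CPM. S100b had 54.4 CPM in WT replicate 2 and at most 3.93 CPM in the other neuronal libraries. Reads of neuroblast, interneuron, erythroid and choroid plexus markers were thus all present in the fraction that the labels call neurons. The word neurons, where KIN and WT are compared below, is the name of that fraction. In bulk RNA fewer cells of a type and less RNA per cell cannot be told apart.

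**Figure D2:**
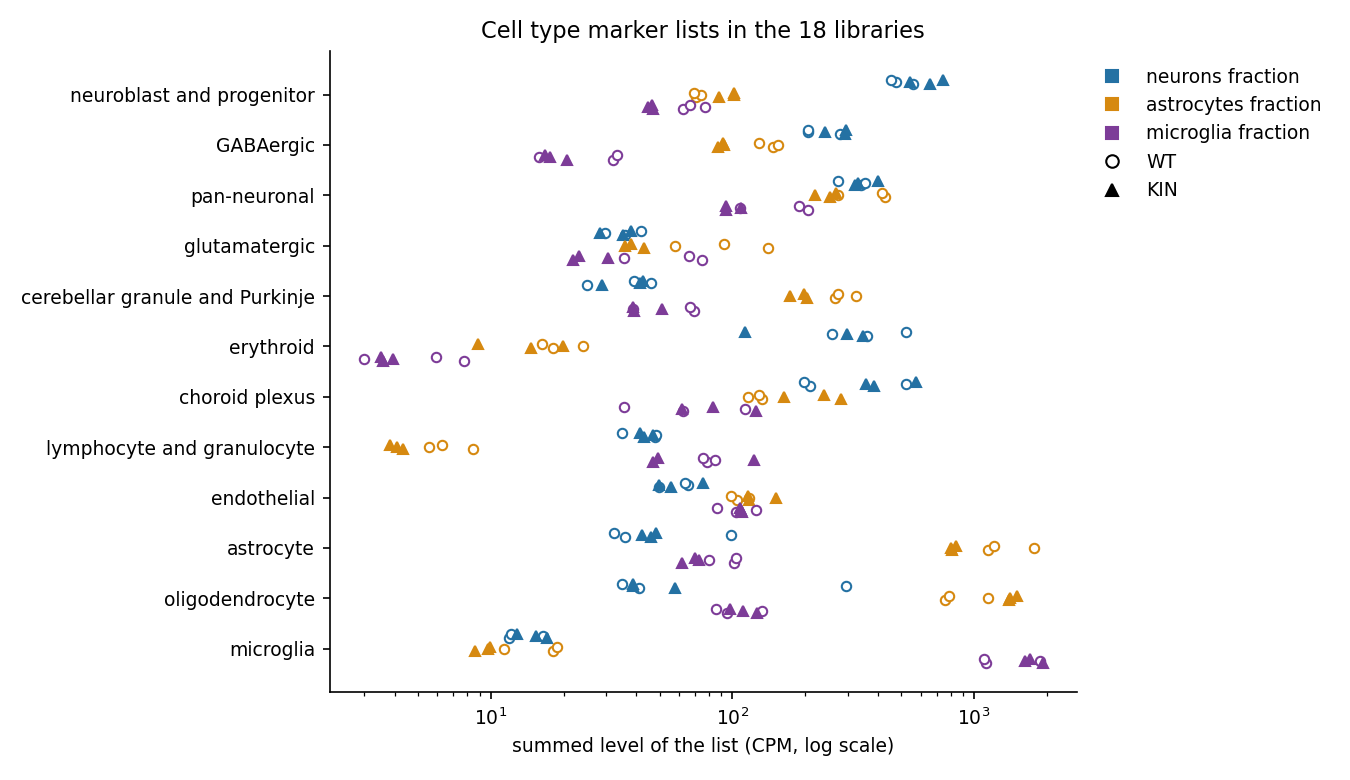
Summed CPM of each marker list (log axis) in all 18 libraries, scaled over all 18, coloured by fraction, with circles for WT and triangles for KIN. The neuroblast and progenitor list lay between 453 and 740 CPM in the neuronal libraries and between 44.9 and 102 CPM in the glial libraries, and 1 WT neuronal library reached 295 CPM in the oligodendrocyte list.

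Few genes passed the test between KIN and WT neurons. By edgeR's quasi-likelihood test 5 of 6765 genes were called, 0 higher and 5 lower in KIN (0.0739%), whereas DESeq2 called 0. With an unadjusted p up to 0.05, edgeR found 180 genes higher (2.66%) and 161 lower (2.38%), 341 in all (5.04%), and DESeq2 found 56 and 78. The log2 fold change was above 0 in 53.3% of genes, with a median of 0.04. The called genes were Ephb2, Tatdn1, Ank3, Mbp and Kif1a. Without WT replicate 2 and with the same genes tested, 4 were called lower (0.0591%), namely Ephb2, Or8g20 and the haemoglobin genes Hba-a1 and Hbb-bt, and 270 genes were nominally higher (3.99%) and 159 nominally lower (2.35%).

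Ephb2 was the gene called both with all libraries and without WT replicate 2, sets that share every other library. It encodes a receptor tyrosine kinase for ephrin-B ligands that guides axons and acts at excitatory synapses, and it lies on chr4:136374850-136563351 (minus strand). Its level was 200, 31.5 and 125 CPM in the WT libraries and 29.1, 28.8 and 25.5 CPM in the KIN libraries. WT replicates 1 and 3 were several times above all others, WT replicate 2 was just above KIN, and the groups did not overlap. The mean fell from 119 ± 84.4 to 27.8 ± 2.04 CPM (SD, n = 3), a log2 fold change of -2.09 ± 0.37 (SE; edgeR, adjusted p = 0.0278). Without WT replicate 2, the WT library nearest to KIN, it was -2.56 (edgeR, adjusted p = 4.32e-20). That fit holds 2 WT libraries, which give little measure of the spread between animals, so the size of this p carries little weight. Without WT replicate 1, or without any single KIN library, the gene was no longer called. Nor was it called by DESeq2 or with stricter filters on reads (5 reads in 2 WT libraries, an equal CPM minimum, or a mean of 10 counts).

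The reads of Ephb2 lay almost wholly in 1 annotated transcript, with 198, 32 and 88 reads in WT and 49, 38 and 45 in KIN, 96.4% of those of the gene. This transcript shares its last exon, chr4:136374850-136382741, and a 3′ UTR of 7783 bases with another transcript that received 3% of the reads. The division of reads between such transcripts is uncertain, and the sum over the gene does not depend on it. In the astrocyte and microglia fractions the gene averaged 4.54 and 3.46 CPM, and its log2 fold change there was -0.37 ± 0.36 and -0.57 ± 0.44 (SE), neither of them called. The KIN effect in neurons was not shown to differ from that in astrocytes (difference -1.65 ± 0.61, edgeR, adjusted p = 0.173) or in microglia (-1.48 ± 0.70, adjusted p = 0.541). Of the 8 genes of Eph receptors and ephrins tested, Ephb2 was the 1 that was nominally different, beside 5.04% of all genes. The median log2 fold change of the 8 was 0.08 with and -0.11 without WT replicate 2, beside 0.04 and 0.07 for all genes. Efnb1, an ephrin-B ligand, had 6.03, 4.63 and 8.35 CPM in WT and 7.02, 6.87 and 9.02 CPM in KIN, with overlapping groups and a log2 fold change of 0.32 ± 0.47 (edgeR, adjusted p = 0.973).

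The other 4 called genes rested on WT replicate 2. Tatdn1, a predicted nuclease on chr15:58758450-58805597, had 74.4, 1222 and 62.7 CPM in WT and 48.0, 44.6 and 63.1 CPM in KIN. Its log2 fold change was -3.13 ± 0.61 (edgeR, adjusted p = 0.049) and -0.40 without that library (adjusted p = 0.854). It is 1 of the genes that hold the stretch printed above.

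Ank3, on chr10:69234603-69863268, had 4.02, 193 and 18.1 CPM in WT and 4.32, 7.55 and 10.1 CPM in KIN. Its log2 fold change was -3.32 ± 0.67 (edgeR, adjusted p = 0.049) with all libraries and -0.48 without WT replicate 2 (adjusted p = 0.912). Mbp had 3.01, 197 and 8.35 CPM in WT and 7.02, 6.87 and 3.18 CPM in KIN, and its log2 fold change went from -3.65 ± 0.75 (edgeR, adjusted p = 0.049) to 0.07 without WT replicate 2. Kif1a, which carries precursors of synaptic vesicles along axons and lies on chr1:92942641-93029752, had 22.1, 144 and 8.35 CPM in WT and 10.8, 8.24 and 10.1 CPM in KIN. Its value was -2.61 ± 0.53 (edgeR, adjusted p = 0.049) and -0.70 without that library (adjusted p = 0.85). In all 4 genes the high value was that of WT replicate 2, and the other WT libraries overlapped with KIN. The summed level of the oligodendrocyte markers was 267 CPM in that library against 31.8 to 47.5 CPM in the other 5 libraries, and that of the astrocyte markers was 88.9 against 33.2 to 39.8 CPM; their part in these 4 results was not tested.

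**Figure D3:**
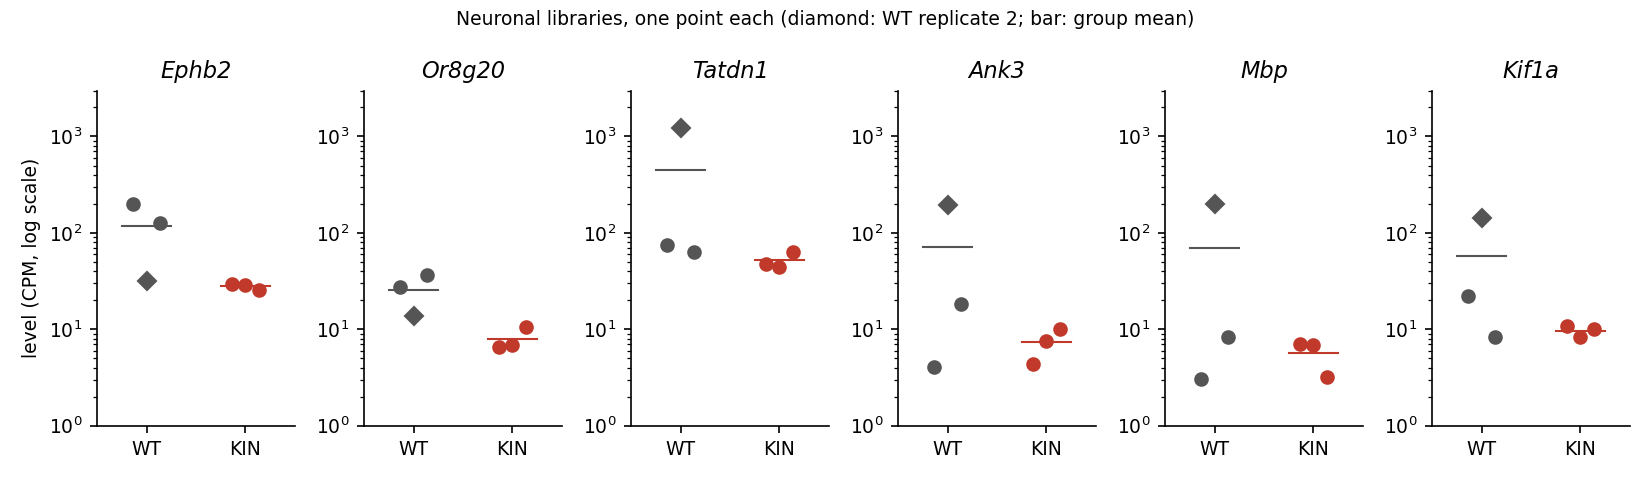
Level in CPM (log axis) of the 5 genes called with all 6 neuronal libraries and of Or8g20, called without WT replicate 2, 1 point per library, with WT replicate 2 as a diamond and the group mean as a bar. KIN lay below every WT library for Ephb2 and Or8g20, whereas WT replicate 2 alone was high for Tatdn1, Ank3, Mbp and Kif1a.

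Or8g20, an olfactory receptor gene on chr9:39393082-39405291, was called when WT replicate 2 was left out. It had 27.1, 13.9 and 36.2 CPM in WT and 6.48, 6.87 and 10.6 CPM in KIN. All KIN libraries were below all WT libraries. With all libraries the log2 fold change was -1.63 ± 0.37 (edgeR, adjusted p = 0.0817), and without WT replicate 2 it was -1.95 (adjusted p = 0.00224). Olfactory receptors form a large family of similar genes, so reads may have been divided among copies.

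Over all genes, every KIN library was above every WT library for 492 genes (7.27%) and every KIN library was below for 297 (4.39%). Because the KIN libraries were deeper, a gene could pass the filter on reads through KIN alone. With the 5 reads required in 2 WT libraries, 3256 genes were tested, of which edgeR called 0, with 110 nominally higher and 96 nominally lower. Among genes that were nominal, had 10 or more counts on average and did not overlap between the groups, the 10 largest in each direction are described, and Ephb2 was the 1 of them that passed the adjusted test. All 10 on the lower side had 5 reads in 2 WT libraries. Kif1b, a kinesin related to Kif1a, had 18.1, 66.7 and 19.5 CPM in WT and 10.8, 8.93 and 11.1 CPM in KIN (log2 fold change -1.78 ± 0.39, edgeR, adjusted p = 0.0687). Dst, a linker of cytoskeletal filaments whose loss causes sensory neuron degeneration, had 18.1, 33.3 and 15.3 CPM in WT and 8.10, 4.12 and 8.49 CPM in KIN (-1.68 ± 0.38, adjusted p = 0.0817). These values without WT replicate 2 were -0.85 for Kif1b and -1.25 for Dst, with adjusted p of 0.782 and 0.477.

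Rph3a, a Rab effector on synaptic vesicles, had 7.03, 35.2 and 8.35 CPM in WT and 6.48, 4.81 and 4.24 CPM in KIN (-1.74 ± 0.49, edgeR, adjusted p = 0.347), and Grin1, the obligatory NMDA receptor subunit, had 11.1, 23.1 and 5.57 CPM in WT and 4.86, 5.49 and 4.24 CPM in KIN (-1.51 ± 0.46, adjusted p = 0.498). In both, WT replicate 2 was the highest library, and without it the values were -0.55 and -0.83. Fyco1, an adaptor between late endosomes and kinesin, had 21.1, 28.7 and 34.8 CPM in WT and 7.02, 15.8 and 11.7 CPM in KIN, and its log2 fold change was -1.29 with and -1.27 without WT replicate 2 (edgeR, adjusted p = 0.223 and 0.281). Rabgap1, which switches off Rab proteins, was the most even of this set, with 13.1, 12.0 and 13.9 CPM in WT and 4.86, 6.18 and 5.31 CPM in KIN (-1.24 ± 0.41, adjusted p = 0.579). The transcription factor Ebf1 (-1.29) and the respiratory chain subunit Cox5b (-1.25) completed this side, at -1.46 and -1.43 without WT replicate 2.

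On the higher side the counts were low in WT, and 6 of the 10 genes, Sos2, Dpep2, Pgls, Kdm5b, Tsc2 and 2410039M03Rik, lacked 5 reads in 2 WT libraries. These entered the test only with the KIN libraries, in which they were higher, and their values are given as a description. Sos2, an exchange factor that activates Ras, had 3, 5 and 2 reads in WT and 25, 12 and 26 reads in KIN, a log2 fold change of 1.72 ± 0.48 (edgeR, adjusted p = 0.347). Echs1, an enzyme of mitochondrial fatty acid oxidation, was better covered, with 16.1, 14.8 and 12.5 CPM in WT and 28.6, 32.3 and 31.8 CPM in KIN (1.08 ± 0.30, adjusted p = 0.347). Its KIN values lay close together and well above WT, and the value was 1.09 without WT replicate 2. The other 8 genes of this set ranged from 1.03 to 1.32 with all libraries and from 1.04 to 2.06 without WT replicate 2, and the smallest adjusted p was 0.721 with all libraries and 0.403 without it (edgeR). They were Dpep2, a dipeptidase, Ist1, which acts in membrane fission, Pgls of the pentose phosphate pathway, the histone demethylase Kdm5b, Ndufa2 of respiratory complex I, the survival factor Mcl1, Tsc2, which restrains mTOR, and 2410039M03Rik.

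Atxn2 itself was sparsely counted, with 3, 10 and 4 reads in WT and 8, 10 and 9 in KIN. The groups overlapped, and the log2 fold change was -0.20 ± 0.53 (edgeR, adjusted p = 0.983). The knockin alters the repeat and keeps the gene, so its count does not check the genotype labels. Of 26 genes of ataxin-2 partners and stress granules, 21 were tested, 0 were nominal in either direction, and their median was -0.16 with and 0.18 without WT replicate 2. Pabpc1, the poly(A)-binding protein that ataxin-2 contacts, had 9.04, 13.9 and 13.9 CPM in WT and 20.0, 19.2 and 17.5 CPM in KIN, which did not overlap (0.63 ± 0.33, edgeR, adjusted p = 0.968).

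The axonal transport motors were led by WT replicate 2. Their summed level was 293, 1388 and 306 CPM in WT and 296, 274 and 371 CPM in KIN. Kif3a, whose count is uncertain because its transcript holds the stretch printed above, gave 779 of the 1388 CPM and 124 to 169 CPM in the other libraries. Of 18 tested, 1 was nominally higher and 6 lower (2.66 and 2.38% of all genes), and the median log2 fold change was -0.38, beside 0.04 for all genes. Without WT replicate 2 it was 0.02, beside 0.07, and 2 were nominally higher and 1 lower (3.99 and 2.35% of all genes). Kif5a, the kinesin heavy chain mutated in hereditary spastic paraplegia, had 5.02, 133 and 12.5 CPM in WT and 2.70, 9.61 and 7.96 CPM in KIN (-2.96 ± 0.64, edgeR, adjusted p = 0.0665), and was at -0.33 without that library. Kif5b reversed, from -2.07 ± 0.60 (adjusted p = 0.384) to 0.57. Dync1h1, the dynein heavy chain of retrograde transport, had 28.1, 28.7 and 46.0 CPM in WT and 25.4, 24 and 35.5 CPM in KIN, with overlapping groups (-0.25 ± 0.29, adjusted p = 0.968).

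Spectrins and ankyrins, which form the membrane skeleton of axons, summed to 90.4, 295 and 71.0 CPM in WT and 75.0, 74.2 and 91.8 CPM in KIN. Of 11 tested, 1 was nominally higher and 1 lower (2.66 and 2.38% of all genes). Their median was -0.30 with and -0.25 without WT replicate 2, beside 0.04 and 0.07 for all genes. Among neurofilaments, tubulins and microtubule-associated proteins 1 of 20 was nominally higher and 0 lower, beside 2.66 and 2.38% of all genes. That gene was Tuba1a, a tubulin abundant in developing neurons, with 45.2, 46.3 and 39 CPM in WT and 54.0, 58.4 and 72.7 CPM in KIN (0.50 ± 0.24, edgeR, adjusted p = 0.968). Tubb3 overlapped between the groups (0.25 ± 0.23, adjusted p = 0.968).

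Genes of presynaptic release had a lower sum in every KIN library than in every WT library on the scale of the 6 neuronal libraries, with 216, 243 and 198 CPM in WT and 147, 150 and 184 CPM in KIN. On the scale of all 18 libraries, which raises KIN relative to WT, the sums overlapped, with 233, 270 and 191 CPM in WT and 179, 177 and 224 CPM in KIN. Of 21 tested, 1 was nominally higher and 3 lower, beside 2.66 and 2.38% of all genes, and 6 had a log2 fold change above 0, beside 53.3% of all genes. Their median was -0.38 with and -0.32 without WT replicate 2, beside 0.04 and 0.07 for all genes. Cplx1, a complexin that clamps vesicle fusion, had 7, 3 and 10 reads in WT and 1, 4 and 2 in KIN (-2.37 ± 0.73, edgeR, adjusted p = 0.498). Glutamate and GABA receptor genes summed to 143, 155 and 139 CPM in WT and 131, 96.1 and 111 CPM in KIN, all KIN below WT. On the scale of all 18 libraries, which raises KIN relative to WT, they overlapped, with 154, 171 and 135 CPM in WT and 159, 114 and 135 CPM in KIN. Of 18 tested, 0 were nominally higher and 2 lower (2.66 and 2.38% of all genes), or 1 lower without WT replicate 2 (2.35% of all genes). Gad1 had 27.1, 13.0 and 15.3 CPM in WT and 11.3, 8.24 and 15.4 CPM in KIN, which overlapped (-0.65 ± 0.36, adjusted p = 0.968). No member of either group was called.

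**Figure D4:**
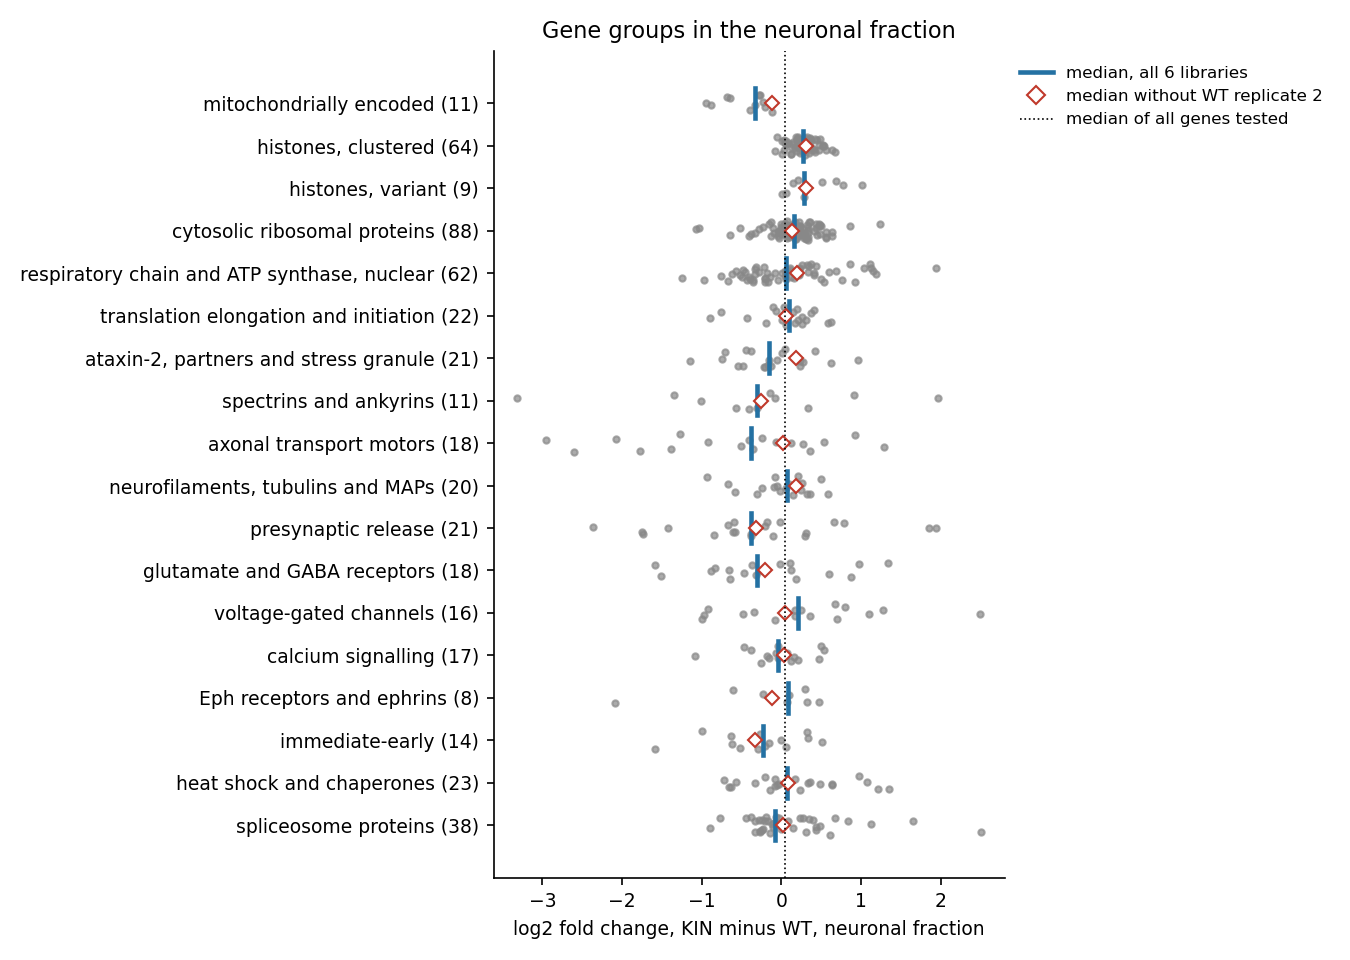
Log2 fold change, KIN minus WT, of every tested member of 18 gene groups in the neuronal fraction (grey points, number tested in brackets), with the group median over all 6 libraries as a blue bar, the median without WT replicate 2 as a red diamond and the median of all genes as a dotted line at 0.04. The axonal transport motors moved from -0.38 to 0.02 when WT replicate 2 was left out, while the presynaptic genes stayed at -0.38 and -0.32.

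The clustered histone genes had far higher levels in the neuronal than in the glial libraries, and among the neuronal libraries most leaned towards KIN without passing the test. These replication-dependent genes supply histones to dividing cells, and their mRNAs typically end in a stem-loop in place of a poly(A) tail. Tails were added to all RNA before counting here. On the scale of all 18 libraries their sum was 4762 to 6132 CPM in the WT and 6644 to 8262 CPM in the KIN neuronal libraries, against 167 to 344 CPM in the astrocyte and 613 to 1079 CPM in the microglia libraries. On the scale of the 6 neuronal libraries it was 4946, 5534 and 4918 CPM in WT and 6228, 5625 and 6798 CPM in KIN. Every KIN library was above every WT library on both scales, of which that of all 18 libraries raises KIN relative to WT. Of 64 tested, 7 were nominally higher and 0 lower, 62 had a log2 fold change above 0, and KIN lay wholly above WT in 22. Of all genes 2.66% were nominally higher, 53.3% were above 0 and 7.27% lay wholly above WT. The median was 0.27, beside 0.04 for all genes, and without WT replicate 2 it was 0.31, beside 0.07. Without that library 18 were nominally higher and 0 lower, beside 3.99 and 2.35% of all genes. No member was called, and since these genes are near-identical copies the division of reads among them is uncertain.

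The stem-loop was searched as GGCNC followed directly by TTTTC and AGNGCC, on the transcribed strand of annotated 3′ UTRs. It was found in 33 of the 52 tested clustered histones with such a UTR (63.5%), in 0 of 9 variant histones, and in 35 of 20955 protein-coding genes (0.167%). It is printed in capitals for genes described here, from GRCm39 on the strand of the gene. The sites were chr11:58845993-58846018 (plus strand) in H2ac25, chr13:22017196-22017219 (minus strand) in H2ac24, chr13:21906671-21906696 (plus strand) in H2bc14, chr13:23715623-23715648 (plus strand) in H4c8 and chr13:23769509-23769534 (minus strand) in H2bc6.
H2ac25: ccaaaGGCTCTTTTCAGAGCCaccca
H2ac24: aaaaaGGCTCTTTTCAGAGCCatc
H2bc14: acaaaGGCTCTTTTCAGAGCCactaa
H4c8: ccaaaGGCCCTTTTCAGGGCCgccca
H2bc6: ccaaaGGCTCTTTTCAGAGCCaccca

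H2ac25 had 34.2, 42.6 and 44.6 CPM in WT and 71.8, 61.8 and 58.4 CPM in KIN, all KIN libraries above WT (0.67 ± 0.24, edgeR, adjusted p = 0.718). H2ac24 had 87.4, 88.0 and 80.8 CPM in WT and 126, 110 and 143 CPM in KIN, again without overlap (0.56 ± 0.22, adjusted p = 0.86). H4c8, 1 of the most abundant members, had 189, 229 and 223 CPM in WT and 214, 215 and 265 CPM in KIN, which overlapped (0.12 ± 0.20, adjusted p = 0.975). H2bc14 had 50.2, 54.6 and 73.8 CPM in WT and 84.7, 83.1 and 85.9 CPM in KIN (0.52 ± 0.23, adjusted p = 0.94), and H2bc6 had 156, 173 and 170 CPM in WT and 195, 179 and 213 CPM in KIN (0.24 ± 0.21, adjusted p = 0.968), neither of them overlapping. Of the 9 variant histones tested, 2 were nominally higher and 0 lower (2.66 and 2.38% of all genes), with a median of 0.29, beside 0.04 for all genes. Without WT replicate 2, 4 were nominally higher, beside 3.99% of all genes. H1f10, a linker histone, had 30.1, 31.5 and 25.1 CPM in WT and 50.2, 46.7 and 52.0 CPM in KIN (0.77 ± 0.26, adjusted p = 0.592). The neuroblast and progenitor markers summed to 517, 429 and 468 CPM in WT and 540, 461 and 609 CPM in KIN, and Mki67 had 11.1, 20.4 and 13.9 CPM in WT and 19.4, 18.5 and 18.0 CPM in KIN (0.29 ± 0.33, adjusted p = 0.968). Their part in the histone levels was not tested.

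Cytosolic ribosomal protein genes leaned towards KIN as well, by a small amount. Of 88 tested, 5 were nominally higher and 0 lower, 67 had a log2 fold change above 0 (2.66, 2.38 and 53.3% of all genes), and the median was 0.16 with and 0.14 without WT replicate 2, beside 0.04 and 0.07 for all genes. Rpl13a, of the large subunit, had 295, 327 and 320 CPM in WT and 376, 531 and 476 CPM in KIN, without overlap (0.55 ± 0.20, edgeR, adjusted p = 0.699). Rpl5, which binds the 5S RNA, had 80.4, 89.8 and 78.0 CPM in WT and 112, 130 and 126 CPM in KIN, also without overlap (0.56 ± 0.22, adjusted p = 0.857). The sums over the group overlapped on the scale of the 6 neuronal libraries, with 15460, 13712 and 17450 CPM in WT and 15727, 18854 and 17310 CPM in KIN. On the scale of all 18, which raises KIN relative to WT, they did not, with 16681, 15193 and 16897 CPM in WT and 19091, 22272 and 21037 CPM in KIN. Of 22 genes of translation initiation and elongation 0 passed an unadjusted p of 0.05 in either direction. Eef1a1, the elongation factor, had 61.3, 25.9 and 23.7 CPM in WT and 23.7, 39.1 and 41.9 CPM in KIN, overlapping (-0.10 ± 0.32, adjusted p = 0.989), and its neuronal form Eef1a2 had 1, 0 and 3 reads in both groups and was not tested.

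All 11 tested mitochondrially encoded genes had a log2 fold change below 0, with a median of -0.33, whereas 53.3% of all genes were above 0, with a median of 0.04. Their sum was 244, 547 and 276 CPM in WT and 248, 262 and 311 CPM in KIN, with WT replicate 2 high and the other WT libraries within or near the KIN range. Without WT replicate 2 the median was -0.11, beside 0.07 for all genes, and 0 of 11 were nominal in either direction, against 2 lower with it (2.38% of all genes). Nuclear genes of the respiratory chain had 2 nominally higher and 1 lower of 62 (2.66 and 2.38% of all genes), with a median of 0.05. Without WT replicate 2 they had 3 higher and 2 lower (3.99 and 2.35% of all genes), with a median of 0.20. Among the higher was Atp5k, a subunit of ATP synthase, with 6, 6 and 2 reads in WT and 21, 7 and 33 in KIN (1.19 ± 0.50, edgeR, adjusted p = 0.912).

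Spliceosome proteins had 2 nominally higher and 0 lower of 38 (2.66 and 2.38% of all genes). Their median was -0.08 with and 0.02 without WT replicate 2, beside 0.04 and 0.07 for all genes. Eftud2, a GTPase of the spliceosome, had 0, 1 and 2 reads in WT and 15, 5 and 15 in KIN. It entered the test only through the KIN libraries and did not pass the adjusted test (edgeR, adjusted p = 0.498). Heat shock proteins and chaperones had 1 nominally higher and 0 lower of 23, and calcium signalling genes 0 and 1 of 17. Immediate-early genes had 0 and 2 of 14, and voltage-gated channels 1 and 0 of 16. Of all genes 2.66% were higher and 2.38% lower. The channel was Kcnab2, which was tested only through the KIN libraries. Without WT replicate 2 the channels had 2 higher and 1 lower and the immediate-early genes 1 and 1, beside 3.99 and 2.35% of all genes. Among the immediate-early genes Dusp1, a phosphatase induced by stimulation, had 16.1, 12.0 and 18.1 CPM in WT and 3.78, 8.93 and 10.1 CPM in KIN, all below WT (-1.0 ± 0.40, adjusted p = 0.886). Egr1, a transcription factor induced by activity, overlapped between the groups (0.34 ± 0.23, adjusted p = 0.968). Spliceosomal snRNAs, snoRNAs, microRNAs and tRNAs had no entry in the table used here.

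The other cell types differed between the groups in part. The haemoglobin genes were low in 1 KIN library, with an erythroid sum of 333, 232 and 540 CPM in WT and 285, 252 and 92.8 CPM in KIN. Hba-a1 had 74.4, 49.1 and 150 CPM in WT and 59.9, 50.1 and 19.1 CPM in KIN, overlapping, and its log2 fold change was -1.06 ± 0.34 with all libraries (edgeR, adjusted p = 0.509) and -1.37 without WT replicate 2 (adjusted p = 0.000247). Of 5 choroid plexus markers tested, 4 were above 0 with all libraries, beside 53.3% of all genes, and their median was 0.11, beside 0.04. Without WT replicate 2 the median was 0.91, beside 0.07. Then 3 were nominally higher and 0 lower, beside 3.99 and 2.35% of all genes. Ttr, the thyroid hormone carrier made in the choroid plexus, had 146, 360 and 153 CPM in WT and 249, 227 and 366 CPM in KIN, and its log2 fold change was 0.35 ± 0.27 with all libraries (adjusted p = 0.968) and 0.91 without that library (adjusted p = 0.00292, below the size required of a call). WT replicate 2 was thus the highest WT library in Ttr and the lowest in the haemoglobin genes.

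The KIN effect in neurons was then compared with that in the glial fractions, to ask which changes the fractions did not share. In a model over the 12 neuronal and astrocyte libraries the KIN effect differed for 51 of 6765 genes (0.754%). It was higher in neurons for 33 (0.488%) and lower for 18 (0.266%). Without WT replicate 2 it was higher for 27 and lower for 9, with 25 of these 36 genes among the 51, and without KIN replicate 1 it was higher for 2 and lower for 1. DESeq2 called 22 higher and 20 lower, 25 of them among the 51. The fractions were drawn one after another from single brains, and with a replicate block that takes same-numbered libraries of a genotype as 1 brain, 12 genes were called, 8 higher and 4 lower. All 12 were among the 51. They were Xkrx, Celsr3, Arsb, Vmn2r114, Vmn1r55, Gm47968, Kcnab2 and Etnk1 on the higher and S100b, Marcksl1, Iho1 and Dennd4a on the lower side. Of the 33, 30 were called lower in KIN astrocytes, 0 were called in neurons, and the neuronal log2 fold change was above 0 in 32. Of the 18, 8 were called higher in KIN astrocytes and 3 were called in neurons. Both comparisons with glia use the same neuronal libraries.

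Apart from receptors of the nose and predicted genes, the 33 held 18 genes. Of the 33, 9 lacked 5 reads in 2 WT neuronal libraries and were tested only through the KIN neurons. Celsr3, a cadherin that guides axons, had 6, 9 and 10 reads in WT and 12, 22 and 20 in KIN neurons, and 35, 15 and 35 in WT and 3, 1 and 2 in KIN astrocytes. All KIN astrocyte libraries were below all WT ones, whereas the neuronal levels overlapped. The neuronal log2 fold change was 0.21 ± 0.43 and the difference from astrocytes 3.83 ± 0.69 (edgeR, adjusted p = 0.00531). Among the lists followed here, called on this side were 3 of 16 voltage-gated channels (Scn8a, Kcnab2 and Cacna1e), 1 of 17 pan-neuronal markers (Thy1), 1 of 21 presynaptic genes (Rims1), 1 of 18 axonal transport motors (Kif21b) and 0 of 18 glutamate and GABA receptor genes, beside 0.488% of all genes. Of these, Scn8a, Kcnab2 and Rims1 were tested only through the KIN neurons, in which they had more reads, as was Nptxr below, and the counts are a description. Thy1, Rims1, Scn8a, Cacna1e, Gng3, Nptxr, Septin3, Gnao1 and Kif21b, named after their values were seen, had neuronal values from 0.12 to 0.95 and astrocyte values from -2.56 to -0.82. None of these 9 was called with the replicate block (edgeR, adjusted p = 0.0566 to 0.108), and each was called in 0 to 3 of the 6 fits that left out a neuronal library.

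Xkrx, a membrane protein of the XK family, had the largest test value. It had 121, 62.0 and 90.5 CPM in WT and 113, 118 and 68.4 CPM in KIN neurons, which overlapped (0.13 ± 0.26). In astrocytes it had 689, 239 and 1346 reads in WT and 164, 19 and 48 in KIN, all KIN libraries below WT. The difference was 3.46 ± 0.55 (edgeR, adjusted p = 0.000737). Arsb, a lysosomal sulfatase, was alike, with 62.3, 46.3 and 71.0 CPM in WT and 75.0, 76.2 and 44.0 CPM in KIN neurons (0.13 ± 0.26), and with 258, 103 and 516 reads in WT and 103, 20 and 34 in KIN astrocytes, where the groups met at 103 raw reads. Its difference was 2.59 ± 0.50 (adjusted p = 0.00575). The counts of Xkrx and Arsb are uncertain as measures of the named genes.

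The 33 also held 7 vomeronasal receptors, 2 olfactory receptors and 6 predicted genes. Vmn2r114 had 122, 117 and 98.9 CPM in WT and 142, 154 and 92.8 CPM in KIN neurons, overlapping, and 173, 140 and 199 reads in WT and 71, 23 and 50 in KIN astrocytes (difference 1.96 ± 0.37, edgeR, adjusted p = 0.00575). The predicted gene Gm47968 had a difference of 2.61 ± 0.50 (adjusted p = 0.00575). The receptors belong to families with similar sequences, and their counts are uncertain as measures of single genes.

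Smox and Etnk1 were tested only through the KIN neurons. Smox, a spermine oxidase, had 0 reads in all WT neuronal libraries and 10, 2 and 9 in KIN, and Etnk1, an ethanolamine kinase, had 0 reads in all WT neuronal libraries and 16, 7 and 8 in KIN. Both had reads in every astrocyte library, and their astrocyte log2 fold changes were -0.46 and -0.29. Neither was called within the neuronal fraction (edgeR, adjusted p = 0.498 for Smox and 0.0844 for Etnk1). Because the filter itself favoured a higher KIN level, their calls against astrocytes are a description, and that of Smox was lost with the replicate block (adjusted p = 0.0544).

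On the lower side, Marcksl1 was among the genes whose difference did not rest on WT replicate 2. It encodes an actin-linked substrate of protein kinase C and had 19.1, 24.1 and 25.1 CPM in WT and 18.4, 13.0 and 16.4 CPM in KIN neurons, all KIN below WT (-0.49 ± 0.31). In astrocytes it had 12, 4 and 5 reads in WT and 29, 24 and 25 in KIN, all above WT. The difference was -2.49 ± 0.50 (edgeR, adjusted p = 0.00841) and -2.43 without WT replicate 2 (adjusted p = 0.013). With Celsr3 and Xkrx it was 1 of 3 genes called in each of the 6 fits that left out a neuronal library. Rps16, of the cytosolic ribosomal proteins, Polr2a, Hes7 and Ccnb1ip1 also stayed called on this side without WT replicate 2. Their differences then ran from -1.96 to -1.26 (edgeR, adjusted p = 0.013 to 0.0385). With the replicate block none of them was called (edgeR, adjusted p = 0.055 to 0.0972).

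Of the 18 genes on the lower side, 7 held the 22-base stretch shown for Tatdn1, among them Iho1 (-2.35 ± 0.51) and Dennd4a (-2.26 ± 0.50). Of 6759 genes tested with a transcript in the annotation, 16 held it (0.237%). The stretch was derived from a set of genes that includes these 7, so the share is a description. Iho1 was at -1.26 ± 0.39 in neurons and at 1.12 in astrocytes, where 633, 975 and 661 reads in WT stood against 1611, 1315 and 1306 in KIN. Its neuronal value was 0.11 without WT replicate 2, and the difference of -0.96 was no longer called (edgeR, adjusted p = 0.13). The astrocyte values followed the 4 letters after the capitals. Kif3a, Iho1 and Timm22, printed with the ending aagt, had 1.07, 1.12 and 1.07, whereas Tatdn1, Akap5 and Lrrc17, with the ending gagc, had -0.17, -0.04 and -0.45. This was seen after the values were known and was not tested. S100b (-4.28 ± 0.81) and Mbp (-3.93 ± 0.80) were called on this side as well, and both were high in WT replicate 2 in the neuronal fraction. Without it Mbp was at -0.17 (adjusted p = 0.934), and S100b no longer passed the filter on reads.

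Against microglia the KIN effect differed for 3 genes (0.0443%), 2 of them higher (0.0296%) and 1 lower (0.0148%) in neurons. Apoe, the lipid carrier of glia, had 12.1, 27.8 and 15.3 CPM in WT and 21.6, 14.4 and 24.4 CPM in KIN neurons, which overlapped (0.12 ± 0.34). In microglia it had 415, 519 and 277 reads in WT and 4346, 3839 and 3268 in KIN, all KIN libraries far above WT. The difference was -2.92 ± 0.47 (edgeR, adjusted p = 0.003), and Apoe was called in each of the 6 fits that left out a neuronal library.

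Nnat, a membrane protein of developing neurons, went the other way. It had 74.4, 55.5 and 48.7 CPM in WT and 81.0, 74.2 and 80.6 CPM in KIN neurons, nearly apart but overlapping (0.39 ± 0.24), and 12, 4 and 13 reads in WT and 0, 0 and 2 in KIN microglia (difference 4.06 ± 0.76, edgeR, adjusted p = 0.0194). Nnat was called in 4 of the 6 fits that left out a neuronal library (edgeR, largest adjusted p = 0.0604). Kcnab2, a subunit of voltage-gated potassium channels, had 1, 1 and 0 reads in WT and 9, 6 and 8 in KIN neurons, and it was tested only through the KIN neurons. In microglia it had 16, 6 and 12 reads in WT and 2, 2 and 2 in KIN. Its difference was 5.03 ± 1.01 (adjusted p = 0.04). It was not called with the replicate block (adjusted p = 0.171) or without WT replicate 2 (0.0855), and was called in 1 of the 6 fits that left out a neuronal library. As with Smox and Etnk1, the filter favoured a higher KIN level, and its calls are a description.

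**Figure D5:**
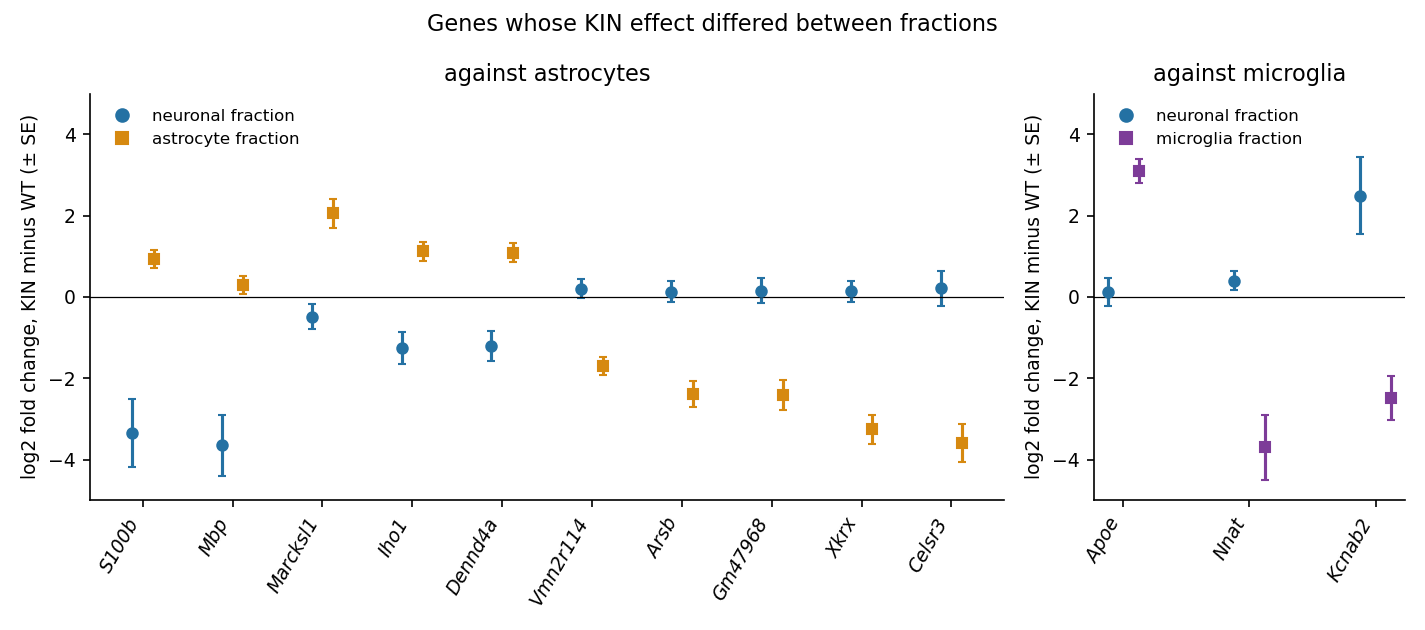
Log2 fold change, KIN minus WT, with its SE, in the neuronal fraction (blue circles) and in the astrocyte (orange squares) or microglia (purple squares) fraction, for the genes with the smallest p in each direction of the test of the difference. In the 5 astrocyte genes on the right and in Apoe and Nnat the neuronal values lay between 0.12 and 0.39, while the glial values lay far from 0.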

How the data were processed

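Per the labels and the study's methods, reads were trimmed with cutadapt 4.6, mapped step by step to RNA classes of mm39 with Bowtie2 2.4.4 and counted per transcript with HTSeq 2.0.2 without regard to strand. The deposited table holds raw counts of 116873 transcripts, beside columns of the authors' own comparisons (fold changes and p-values) and 36 other per-sample columns, which were not used. Counts were summed by gene symbol (35823 symbols, and 137 entries without one kept apart). KIN and WT neurons, 3 libraries each, were compared with edgeR 4.0.16 (quasi-likelihood test, TMM, R 4.3.3) on 6765 genes, with Benjamini-Hochberg adjustment over all of them, and DESeq2 1.42.0 was an alternative. Differences between fractions were interaction terms over 12 libraries. The edgeR fits of the neuronal comparison and of the differences to astrocytes and microglia were tested on simulated data, and the other steps were not. Intervals and floors (3 counts) cover counting error only.

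The members and gene lists were chosen with earlier results of these data known. Genes named were those called, the 10 largest differences in each direction without overlap (unadjusted p of at most 0.05, mean of 10 counts), in each list the 4 with the smallest p and the 2 most abundant, a set of genes listed by name, and the 5 with the smallest p in each direction of each interaction. Further genes named for a family, or for a shared sequence, were chosen after their values were seen. Rnu1b2, on that set, had no entry in the table used here. Sequences were read from GRCm39 with the GENCODE M39 annotation, in which 99.4% of transcript identifiers were found.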

Additional observations from a re-analysis of the deposited data

Results flagged for a closer look

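The following genes stood out because the KIN effect differed between the neuronal and a glial fraction by the interaction test (edgeR), given as the neuronal minus the glial log2 fold change. Against astrocytes they were S100b (-4.28), Mbp (-3.93), Marcksl1 (-2.49), Iho1 (-2.35) and Dennd4a (-2.26) on the lower side and Vmn2r114 (1.96), Arsb (2.59), Gm47968 (2.61), Xkrx (3.46) and Celsr3 (3.83) on the higher side. Against microglia they were Apoe (-2.92), Nnat (4.06) and Kcnab2 (5.03). Celsr3, Xkrx and Marcksl1 kept their call in each of the 6 fits without 1 neuronal library, as did Apoe. Nnat kept it in 4 of 6. Kcnab2 against microglia, which passed the filter on reads only through the KIN neurons, kept it in 1 of 6. The neuronal part of S100b, Mbp, Iho1 and Dennd4a rested on WT replicate 2.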

How the results depend on the processing

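The 5 calls in the neuronal fraction became 0 with DESeq2, 0 with 5 reads required in 2 WT libraries, 0 with an equal CPM minimum and 0 with a mean of 10 counts. They became 1 with library sizes over all genes (an alternative chosen after seeing the data), 1 without the 10 most abundant transcripts, 1 with transcripts in place of genes and 1 with the replicate block. They became 8 after thinning to the shallowest library, 21 with all 18 libraries in one fit (4 higher, 17 lower) and 28 without a filter (2 higher, 26 lower). Leaving out 1 library gave 0 to 22 calls: 0 without any single KIN library, 22 without WT replicate 1, 3 without WT replicate 2 and 16 without WT replicate 3. DESeq2 size factors, or TMM without mitochondrially encoded genes, gave 7, the same 5 genes among them. Against astrocytes the 51 calls became 12 with the replicate block and 3 to 64 on leaving out 1 library, with 3 without KIN replicate 1 and 7 without KIN replicate 2. Against microglia the 3 calls became 1 to 7, with 1 without KIN replicate 1 or 3 and 7 without WT replicate 1. The cause was not tested. Same-numbered KIN and WT libraries correlated at 0.837, 0.82 and 0.804 in log2 CPM. After the group mean of each gene was subtracted, these deviations correlated at 0.031, 0.021 and 0.021. The numbers were therefore not taken to pair animals, although the deviations of each library correlated best with those of its own number. Leaving out WT replicate 2 with the same genes tested, the log2 fold change reversed for Mbp (0.071), S100b (0.56), Kif5b (0.57), Kif3a (0.16), Iho1 (0.11) and Dennd4a (0.094). Over the fits that leave out 1 library and filter anew, it ran from -4.21 to 0.074 for Mbp, from -2.57 to 0.57 for Kif5b, from -1.67 to 0.16 for Kif3a, from -1.65 to 0.11 for Iho1 and from -1.59 to 0.095 for Dennd4a. The 70 markers called became 55 to 71 under the alternatives run, 55 with permutation within brains. Most genes tested had under 10 counts on average, which limits their precision.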
